A study of Homo sapiens with 3 samples.

Results

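Cholesterol and fatty acid synthesis was followed through 30 genes, chosen by name as enzymes of either pathway or as regulators of the SREBP transcription factors. All 30 were rows of the table, among 35713 gene rows kept. They comprise 17 sterol enzymes, 8 fatty acid enzymes and 5 regulators. The 3 RNA-seq libraries came from Ishikawa, a long-used human cell line grown from an adenocarcinoma of the endometrium. In CLDN6 replicates 1 and 2 the cells carried claudin-6, a tight junction protein, from a lentiviral vector, and the labels call the overexpression transient. The control was 1 library of wild-type (WT) cells without treatment, and no library with an empty vector was analysed here, so vector and CLDN6 cannot be told apart. All cells grew in the same RPMI medium with fetal bovine serum, which itself supplies cholesterol. The column headers carry the name ECC-1 where the labels say Ishikawa.

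Cells build cholesterol from acetyl-CoA through mevalonate, farnesyl diphosphate, squalene and lanosterol. Fatty acids are built from the same acetyl-CoA by carboxylation, chain assembly, elongation and desaturation. Both pathways are governed by SREBP proteins, which are held in the endoplasmic reticulum by SCAP and INSIG while sterols are plentiful, and which otherwise travel to the Golgi, are cleaved, and switch on the enzymes. SREBP2, from SREBF2, acts mainly on the sterol enzymes, and the SREBP1c form from SREBF1 mainly on the fatty acid enzymes. Epithelial tumour lines commonly express both pathways.

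Levels are reads per 1000000 reads of the library (RPM), given below in the order CLDN6 replicate 1, CLDN6 replicate 2, WT, and differences are on the log2(RPM + 1) scale. Depth was 65755118 to 71088867 reads per library, and 26 of the 30 genes had at least 1000 reads in every library. CLDN6 itself was at 354, 413 and 0.236 RPM. The epithelial keratin KRT8 was at 3530, 3803 and 3529 RPM and the Mullerian factor PAX8 at 265, 163 and 216 RPM. Of the other markers of these 2 lists, 4 were low in replicate 2. E-cadherin (CDH1) was at 293, 116 and 235 RPM, CLDN4 at 145, 48.2 and 138 RPM, the oestrogen receptor ESR1 at 99.8, 17.2 and 71.7 RPM, and EMX2 at 55.3, 18.9 and 46.7 RPM. These 4, of 6 epithelial and 5 Mullerian markers, were at least 2-fold higher in replicate 1 than in replicate 2, as were 36.2% of all genes tested. The part of these markers in the results below was not tested. Of the marker lists of other cell types, DCN, LUM, PDGFRB, PECAM1, ADIPOQ, LEP, TTR and CYP3A4 had 0 reads in each library, which allows up to 0.0456 RPM. The summed level of the 4 adipocyte markers was at most 0.281 RPM and that of the 4 hepatocyte markers at most 0.0456 RPM, while the 7 mesenchymal markers summed to 17.2, 49.5 and 22.6 RPM, nearly all of it COL1A1. Whether the replicates were separate cultures is not in the labels, so the p-values reflect the scatter of these samples alone, which may be technical.

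None of the 30 genes passed the test of CLDN6 against WT (limma, Benjamini-Hochberg), and 0 had an unadjusted p under 0.05. Of all 14509 genes tested, 0.00689% passed, which was CLDN6 alone, and 4 had an unadjusted p under 0.05. By limma-voom on recovered reads 0 genes passed, with 8 at an unadjusted p under 0.05. Only the CLDN6 pair informs the spread in this test (1 residual degree of freedom), and WT, with 1 library, is taken to vary as that pair does. In 23 of the 30 genes WT lay between the CLDN6 libraries, 11 with replicate 1 on the high side and 12 with replicate 2. Over all genes tested these shares were 53.8% and 22%. Below WT in both CLDN6 libraries were 6 genes, where 15.1% of all genes were, and above WT in both was 1, where 9.06% of all genes were. With each difference taken relative to the median of all genes, 3 members lay below and 4 above WT in both, where 12.9% of all genes lay on either side. At least 1.5-fold from WT in the same direction in both libraries were 0 of the 30, against 1.01% of all genes below and 0.303% above. At 2-fold the count was likewise 0, against 0.193% below and 0.0345% above. Taken singly, replicate 1 had 10 members at least 1.5-fold below WT (7.04% of all genes) and 7 above (24.4%), and replicate 2 had 6 below (37.4%) and 6 above (7.59%).

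**Figure D1:**
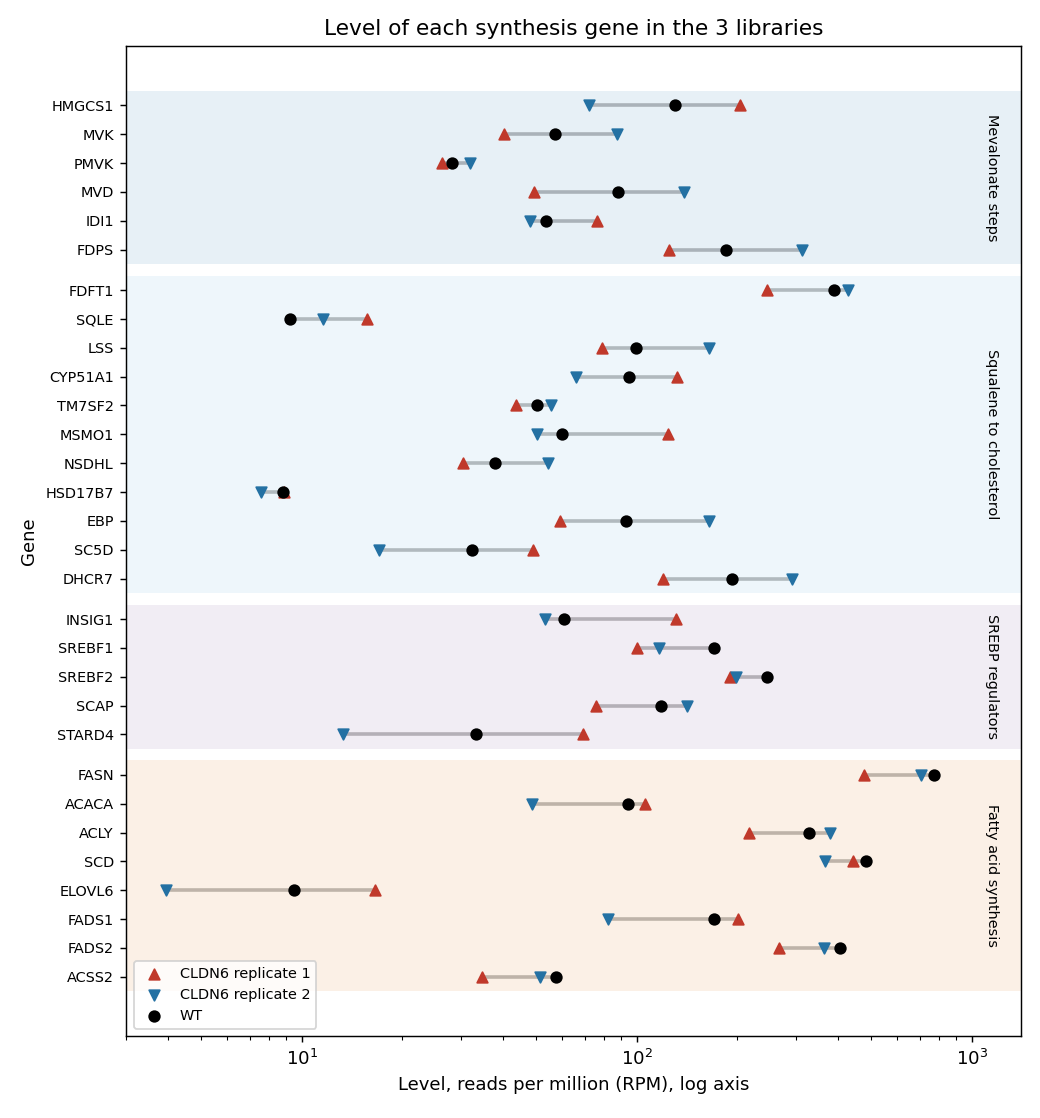
Level of each of the 30 genes in RPM (log axis), 1 point per library, with a grey line from the lowest to the highest library. SREBF1, SREBF2, FASN, SCD, FADS2 and ACSS2 have the WT point on the right, SQLE has it on the left, and in the other 23 genes WT lies between the CLDN6 libraries.

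The 6 genes below WT in both CLDN6 libraries were the SREBP genes SREBF1 and SREBF2 and 4 fatty acid enzymes, FASN, SCD, FADS2 and ACSS2. SREBF1 was read at 100.4, 117 and 170 RPM, so that the CLDN6 libraries lay at 58.9% and 68.7% of WT. On the RPM scale both were low and close to each other. The limma log2 change was -0.65 ± 0.93 (SE), with adjusted p = 0.99996 (limma, Benjamini-Hochberg). SREBF1 was the only member below WT in both libraries under each of the 9 processing settings compared. The size of its decrease varied with them. With trimmed-mean scaling its log2 differences from WT were -1.05 in replicate 1 and -0.06 in replicate 2. With median-ratio scaling they were -1.04 and -0.04. After removal of the trend over GC content and transcript length they were -0.17 and -0.91. The SREBF1 row (ENSG00000072310) lies at chromosome 17, minus strand, 17810399 to 17837002 (GRCh38) and overlaps RAI1 over 1055 bases, so reads of the overlap are uncertain. The row counts all transcripts of the gene and does not part SREBP1a from SREBP1c.

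SREBF2 was at 190, 198 and 244 RPM, that is 77.8% and 80.9% of WT. The gap between its CLDN6 libraries, -0.06 on the log2 scale, was the smallest of the 30 in the values as deposited. SREBF2 lay below WT in both libraries in 6 of the 9 settings, and not with trimmed-mean or median-ratio scaling, or with values freed of their trend over GC content and transcript length. Per kilobase of the longest transcript, SREBF2 exceeded SREBF1 in each library, with ratios of 1.55, 1.38 and 1.17.

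The other regulators set WT between the CLDN6 libraries. SCAP, the sterol-sensing escort of SREBP, was at 75.7, 141 and 118 RPM. INSIG1, which retains SCAP in the endoplasmic reticulum and is itself an SREBP target, was at 131, 53.1 and 60.9 RPM. INSIG1 was thus 2.15-fold over WT in replicate 1 (95% counting interval 2.07 to 2.23) and at 87.2% of WT in replicate 2. STARD4, a carrier of cholesterol between membranes, was at 69.3, 13.3 and 33.1 RPM. Its CLDN6 libraries were 5.22-fold apart, the widest gap among the 30, with WT in the middle. The intervals cover counting error only, and PCR copies are not independent molecules.

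The promoters of SREBF2 and INSIG1 are shown because they hold, within 250 bases before the RefSeq start, the letters through which SREBP is known to bind. Windows were found for 27 of the 30 genes (RefSeq, GRCh38.p14), those of FDFT1, SQLE and FASN excepted. Both strands were searched for the sterol regulatory element TCACNCCAC, the E-box form TCACGTGA and the CCAAT box, which is the binding sequence of the SREBP partner NF-Y. Among the members, no match of 1 motif overlapped a match of another motif. The element TCACNCCAC was found in 1.09% of all 27305 genes with a window and, among the members, in SREBF2 alone. The E-box form was found in 1.04% of all genes and, among the members, in INSIG1 alone. SREBF2 is shown from chr22:41832855-41833104 on the plus strand and INSIG1 from chr7:155297628-155297877 on the plus strand, with the matches in capitals. The gene rows of GENCODE begin inside these windows, before the RefSeq start.
SREBF2: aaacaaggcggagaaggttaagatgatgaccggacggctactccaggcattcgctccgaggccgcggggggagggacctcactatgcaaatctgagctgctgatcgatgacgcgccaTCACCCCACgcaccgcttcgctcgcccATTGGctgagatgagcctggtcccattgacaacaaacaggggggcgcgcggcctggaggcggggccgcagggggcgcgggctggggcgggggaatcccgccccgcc
INSIG1: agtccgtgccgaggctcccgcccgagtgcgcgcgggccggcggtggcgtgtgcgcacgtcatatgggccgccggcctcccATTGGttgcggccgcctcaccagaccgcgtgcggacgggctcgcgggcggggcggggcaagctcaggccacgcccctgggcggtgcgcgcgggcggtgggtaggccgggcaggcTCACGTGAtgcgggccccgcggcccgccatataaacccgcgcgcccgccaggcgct
A match is a run of letters and not a measured site. Looser forms of the motifs were not searched for, so a window without a match may still hold a site. INSIG1 holds the E-box form and SREBF2 the sterol regulatory element. The gap between the CLDN6 libraries was 1.28 for INSIG1 and -0.06 for SREBF2 in the values as deposited. With trimmed-mean scaling these gaps were 0.52 and -0.83, and after removal of the GC and length trend 1.64 and 0.71. Whether the matches bear on the gaps was not tested.

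The enzymes from acetyl-CoA to farnesyl diphosphate fell into 2 patterns. HMGCS1, the synthase that makes HMG-CoA, was at 204, 72.1 and 131 RPM. IDI1, the isopentenyl diphosphate isomerase, was at 76.1, 48.1 and 53.8 RPM. In these genes replicate 1 was highest and replicate 2 lowest. In the other 4 the order was the opposite. The mevalonate kinase MVK was at 40.2, 87.5 and 57.0 RPM. The phosphomevalonate kinase PMVK was at 26.2, 31.8 and 28.1 RPM. MVD, the mevalonate diphosphate decarboxylase, was at 49.4, 138 and 88.1 RPM, and FDPS, the farnesyl diphosphate synthase, at 125, 313 and 185 RPM. PMVK had the smallest gap of these, 1.21-fold between the CLDN6 libraries, while MVD was 2.80-fold and FDPS 2.50-fold higher in replicate 2. FDPS has near-identical pseudogene copies, so the split of its reads is uncertain. Its row also overlaps RUSC1-AS1 on the opposite strand over 3804 bases, which was at 50.5, 117 and 74.5 RPM. The row of HMGCS1 overlaps CTD-2636A23.2 on the opposite strand over 1445 bases, which was at 37.7, 12.3 and 23.4 RPM. Without a stated strand setting, reads of these overlaps are uncertain.

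The steps from farnesyl diphosphate to lanosterol begin with FDFT1, the squalene synthase, at 245, 426 and 388 RPM. Per kilobase it had the highest mean level of the 30 genes, at 92.3, 160 and 146 RPM per kb. SQLE, the squalene epoxidase and an oxygen-dependent control point of the pathway, was at 15.7, 11.6 and 9.21 RPM. In the values as deposited SQLE was the only member above WT in both CLDN6 libraries. It lay 1.70-fold over WT (95% counting interval 1.54 to 1.88) in replicate 1 and 1.25-fold (1.13 to 1.40) in replicate 2. SQLE lay above WT in both libraries under each of the 9 settings. Other members joined it in some, such as IDI1, MSMO1 and INSIG1 with trimmed-mean scaling. After removal of the GC and length trend FDPS, LSS and NSDHL did so. The limma log2 change of SQLE was 0.50 ± 1.23 (SE), with adjusted p = 0.99996 (limma, Benjamini-Hochberg). LSS, the lanosterol synthase, was at 78.9, 164 and 99.3 RPM.

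From lanosterol to cholesterol, CYP51A1, which removes the 14-alpha methyl group, was at 132, 66.0 and 94.6 RPM. The row of LRRD1 on the same strand overlaps CYP51A1 over 30794 bases and was at 126, 62.9 and 88.7 RPM, so the 2 rows cannot be taken as separate readings. MSMO1, the sterol C4-methyl oxidase, was at 124, 50.4 and 60.0 RPM. SC5D, the sterol C5-desaturase, was at 49.1, 16.99 and 32.3 RPM. These 3 enzymes were high in replicate 1 and low in replicate 2, with gaps of 2.01-, 2.46- and 2.89-fold. EBP, the sterol isomerase, was at 59.1, 164 and 92.7 RPM. DHCR7, the last reductase before cholesterol, was at 120, 290 and 192 RPM. NSDHL, the C4 decarboxylase, was at 30.4, 54.5 and 37.7 RPM. These 3 were high in replicate 2, by 2.78-, 2.42- and 1.79-fold over replicate 1. The smallest gaps of these steps were those of the sterol reductase TM7SF2, at 43.7, 55.6 and 50.3 RPM, and of the ketoreductase HSD17B7, at 8.88, 7.57 and 8.83 RPM. HSD17B7 also has near-identical pseudogene copies, so its split of reads is uncertain.

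The sterol enzymes MSMO1 and NSDHL, with opposite patterns in the values as deposited, shared promoter letters. Their gaps between the CLDN6 libraries were 1.28 and -0.82 as deposited, and 1.22 and -0.05 after removal of the GC and length trend. Whether these letters bear on the patterns was not tested. At least 2 CCAAT boxes were found in 9 of the 15 sterol enzymes with a window, in 3 of the 7 fatty acid enzymes and in 11.5% of all genes with a window. MSMO1, high in replicate 1, held 4, and NSDHL, high in replicate 2, held 5, of which a CCAAT and an ATTGG overlap each other. They are shown, MSMO1 from chr4:165327419-165327668 and NSDHL from chrX:152830813-152831062, both on the plus strand, with CCAAT and its reverse complement ATTGG in capitals.
MSMO1: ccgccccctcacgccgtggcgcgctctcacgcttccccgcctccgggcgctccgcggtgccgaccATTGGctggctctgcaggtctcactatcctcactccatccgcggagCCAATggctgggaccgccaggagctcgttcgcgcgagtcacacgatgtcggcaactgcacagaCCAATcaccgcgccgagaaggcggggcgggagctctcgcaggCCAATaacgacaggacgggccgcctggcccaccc
NSDHL: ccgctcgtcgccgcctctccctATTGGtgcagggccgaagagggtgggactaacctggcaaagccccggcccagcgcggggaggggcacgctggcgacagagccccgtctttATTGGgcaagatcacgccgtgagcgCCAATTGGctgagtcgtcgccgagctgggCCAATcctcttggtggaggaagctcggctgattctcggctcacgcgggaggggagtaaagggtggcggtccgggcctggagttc

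Among the fatty acid enzymes, FASN, the fatty acid synthase, was at 476, 708 and 770 RPM, and replicate 2 lay at 92.0% of WT while replicate 1 lay at 61.8%. SCD, the stearoyl-CoA desaturase that makes monounsaturated fatty acids, was at 443, 365 and 485 RPM, and its lower library was replicate 2. ACSS2, which makes acetyl-CoA from acetate, was at 34.6, 51.6 and 57.3 RPM. For each of these 3, and for FADS2, the WT level was the highest of the 3 libraries. The limma log2 changes were -0.41 ± 0.95 (SE) for FASN, -0.27 ± 0.93 for SCD, -0.38 ± 0.93 for FADS2 and -0.43 ± 1.00 for ACSS2, and the adjusted p was 0.99996 for each (limma, Benjamini-Hochberg). With trimmed-mean or median-ratio scaling replicate 2 lay above WT in all 4, by 0.36 for FASN and 0.07 for SCD under the trimmed mean, so under those scalings none of the 4 was below WT in both libraries. ACSS2 also left it under quantile normalization and SCD after removal of the GC and length trend.

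ACLY, which makes cytosolic acetyl-CoA from citrate for both pathways, was at 216, 378 and 327 RPM, with replicate 2 high. ACACA, the acetyl-CoA carboxylase that makes malonyl-CoA, was at 106, 48.8 and 94.3 RPM. ELOVL6, an elongase of saturated and monounsaturated chains, was at 16.6, 3.92 and 9.51 RPM, which rest on 1181, 258 and 645 reads. ACACA and ELOVL6 were low in replicate 2, at 51.8% and 41.3% of WT (95% counting interval of the ELOVL6 ratio 0.356 to 0.478). Per kilobase, FASN exceeded ACACA 5.21-, 16.9- and 9.50-fold, and ELOVL6 had the lowest mean level of the 30 genes, at 2.57, 0.608 and 1.47 RPM per kb.

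The neighbouring desaturases FADS1 and FADS2, which act in turn on polyunsaturated fatty acids, did not move together in the values as deposited. FADS1, the delta-5 desaturase, was at 200.4, 82.1 and 171 RPM, and FADS2, the delta-6 desaturase, at 266, 364 and 406 RPM. FADS1 was low in replicate 2 alone, at 48.2% of WT, and FADS2 was low mainly in replicate 1, at 65.5% of WT. After removal of the GC and length trend, the log2 differences from WT in replicates 1 and 2 were 0.47 and -1.28 for FADS1. For FADS2 they were -0.06 and -0.55, so both genes were then lower in replicate 2. The ratio of FADS1 to FADS2 was 0.754, 0.226 and 0.420. The row of FADS1 (chromosome 11 from 61799625 to 61829318, minus strand) lies wholly inside that of FADS2 (61792980 to 61867354, plus strand), which also holds FEN1 at 79.5, 77.5 and 66.5 RPM, so reads of these rows are uncertain without a stated strand setting. Of the 30 members, 17 have a row that overlaps another.

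Set side by side by their sums, the sterol enzymes stood below WT in replicate 1 and above it in replicate 2, and the fatty acid enzymes below it in both, but the members were mixed. Of the 17 sterol enzymes, 7 lay above WT in replicate 1 and 11 in replicate 2. Of the 8 fatty acid enzymes, 4 lay below WT in both libraries, while ACACA, ELOVL6 and FADS1 lay above it in replicate 1 and ACLY in replicate 2. The sterol enzymes summed to 1428, 1999 and 1608 RPM, or 88.8% and 124% of WT. The fatty acid enzymes summed to 1759, 2001 and 2321 RPM, or 75.8% and 86.2% of WT. The ratio of the sums, which no scaling of a whole library changes, was 0.812, 0.999 and 0.693, so it was lowest in WT. FASN and SCD made up 52.2%, 53.6% and 54.1% of the fatty acid sum, and without FASN the ratios were 1.11, 1.55 and 1.04, in the same order. The median log2 difference from WT was -0.20 in replicate 1 and 0.17 in replicate 2 for the sterol enzymes, and -0.37 and -0.29 for the fatty acid enzymes. The same medians over all genes tested were 0.20 and -0.35. Relative to them, the sterol enzymes stood at -0.40 and 0.52 and the fatty acid enzymes at -0.57 and 0.06. The sterol median exceeded the fatty acid median by 0.17 in replicate 1 and 0.46 in replicate 2. The signs of the medians themselves turned with the processing. After removal of the GC and length trend the sterol medians were 0.15 and -0.07 and the fatty acid medians -0.02 and -0.53, with an excess again of 0.17 and 0.46. The fatty acid median in replicate 2 was 0.19 with trimmed-mean and 0.22 with median-ratio scaling. Under quantile normalization the excess was -0.03 and 0.83. Both differences share the WT library, and none of these values has a test.

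**Figure D2:**
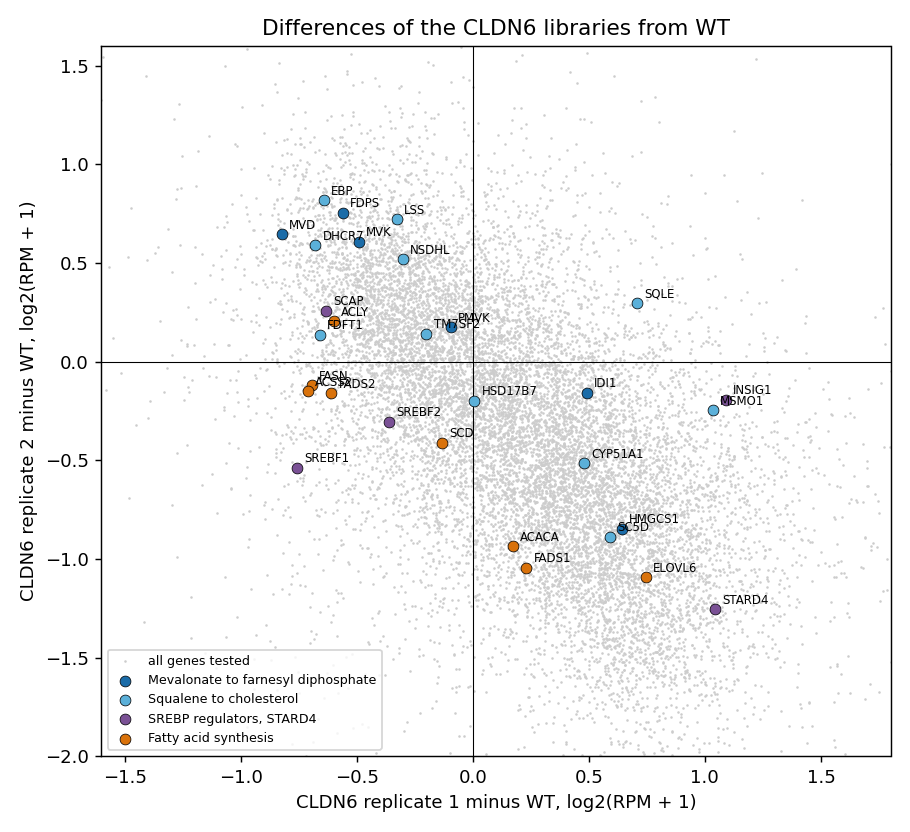
Difference of each gene from WT on the log2(RPM + 1) scale, CLDN6 replicate 1 on the horizontal and replicate 2 on the vertical axis, with all genes tested in grey (points beyond the axes are not drawn). The members lie mostly at the upper left and lower right, SREBF1 at -0.76 and -0.54 lies lowest along the diagonal of shared decrease, and SQLE alone lies in the upper right.

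At least 2-fold apart between the CLDN6 replicates, on the log2(RPM + 1) scale, were 14 of the 30 members, against 43.4% of all genes tested. These were 8 of the 30 higher in replicate 1, against 36.2% of all genes, and 6 higher in replicate 2, against 7.15% of all genes. All 6 higher in replicate 2 were sterol enzymes, namely MVK, MVD, FDPS, LSS, EBP and DHCR7. The 8 higher in replicate 1 were HMGCS1, MSMO1, SC5D, INSIG1, STARD4, ACACA, ELOVL6 and FADS1.

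GC content of the longest transcript moved with this gap, and its part in the gap was not tested. Of the 13 members under 50% GC, 12 were higher in replicate 1, with FDFT1 the exception. Of the 17 members at or over 50%, 16 were higher in replicate 2, with FADS1 the exception. Over all genes, 87.1% of those under 50% GC were higher in replicate 1 and 56.0% of the others were higher in replicate 2. Across the 30 genes, which come from the same libraries and are not independent, the gap ranked with GC content at a Spearman rho of -0.74 and with length of the transcript at 0.30, where all 14372 genes with values gave -0.61 and 0.44. The sterol enzymes ranged from MSMO1 at 38.1% to TM7SF2 at 64.2% GC, and the median was 50.5% for the sterol and 51.1% for the fatty acid enzymes.

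**Figure D3:**
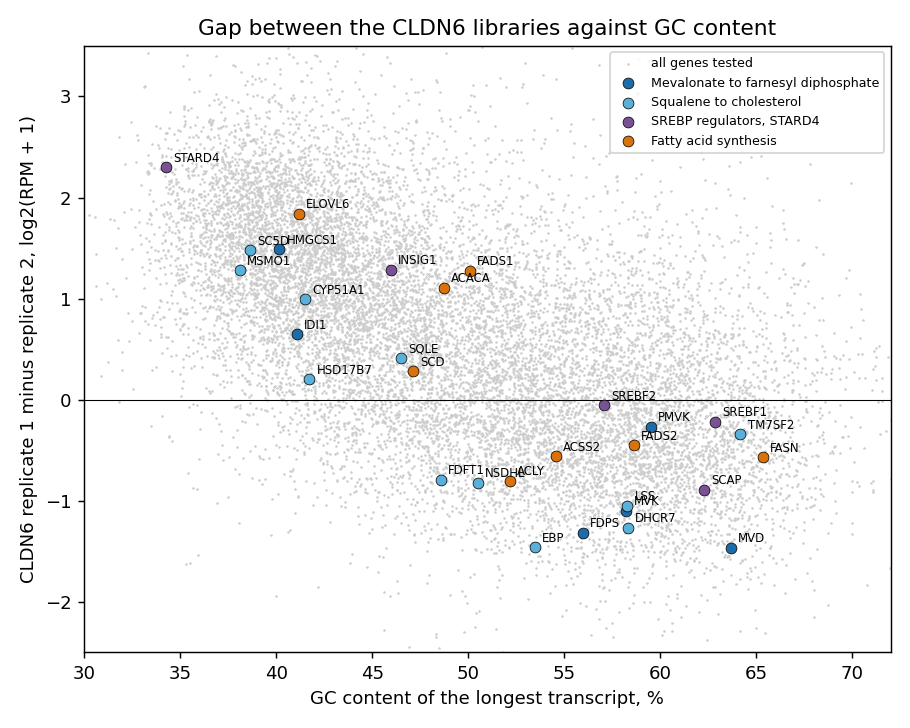
Gap between the CLDN6 libraries (replicate 1 minus replicate 2, log2(RPM + 1)) against the GC content of the longest transcript in percent, with all genes tested in grey. STARD4 (34.2% GC, gap 2.30) stands at the upper left and MVD (63.7% GC, gap -1.47) at the lower right.

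A trend over GC content, length and mean level was then fitted to all genes of each library and subtracted. After that 6 members remained at least 2-fold apart, against 28.3% of all genes. All 6, HMGCS1, MSMO1, SC5D, INSIG1, STARD4 and FADS1, were higher in replicate 1, and each had also been among the 14. The 6 sterol enzymes that had been at least 2-fold higher in replicate 2 moved close to 0, MVD from -1.47 to -0.10, EBP from -1.46 to -0.25, FDPS from -1.32 to 0.08, DHCR7 from -1.27 to 0.09, MVK from -1.10 to -0.28 and LSS from -1.05 to -0.24. The gaps of INSIG1 and FADS1 widened, from 1.28 to 1.64 and from 1.28 to 1.75. MSMO1 and HMGCS1 moved less, from 1.28 to 1.22 and from 1.49 to 1.34. TM7SF2 and PMVK, which are short and rich in GC, went from -0.34 to 0.95 and from -0.27 to 0.99. The median absolute gap of the sterol enzymes was 1.05 before and 0.29 after, and that of all genes 0.87 and 0.64. After the removal, 7 members lay below WT in both libraries, among them SREBF1, FASN, FADS2 and ACSS2, against 17.3% of all genes, and 4 lay above, namely FDPS, SQLE, LSS and NSDHL, against 13% of all genes.

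**Figure D4:**
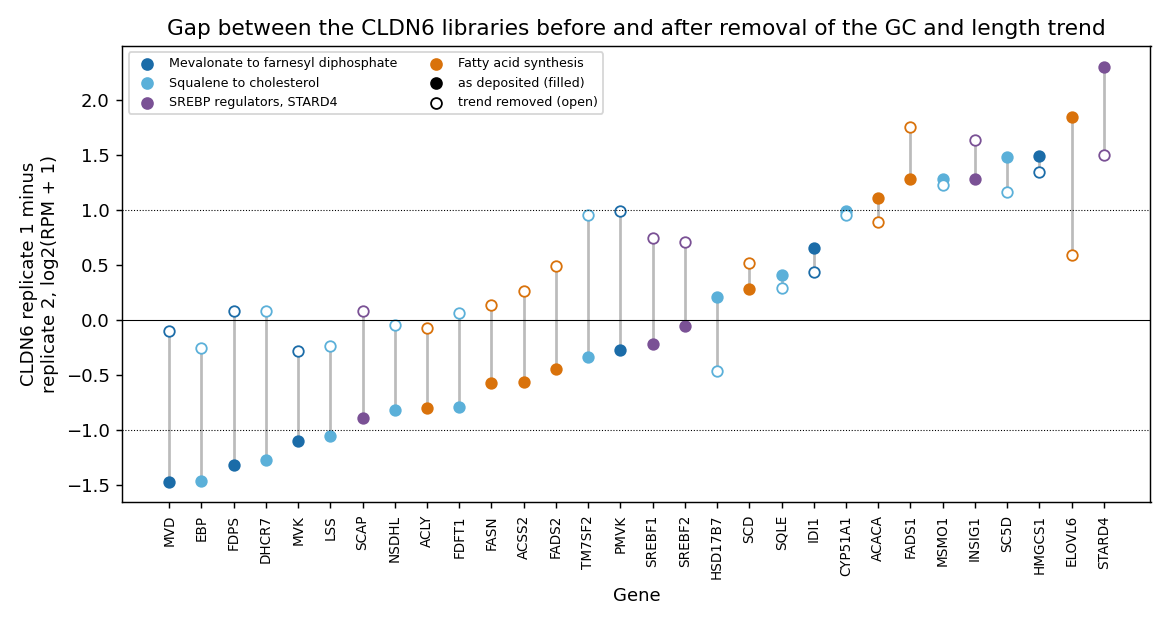
Gap between the CLDN6 libraries for each member (replicate 1 minus replicate 2, log2(RPM + 1)) as deposited (filled) and after removal of the GC and length trend (open), with dotted lines at 2-fold. MVD, EBP, FDPS and DHCR7 at the left move to near 0, and FADS1 and INSIG1 at the right move away from it.

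Other genes of these pathways, from lists of neighbouring functions, likewise gave 0 calls among the genes tested (limma, Benjamini-Hochberg), and 0 of them had an unadjusted p under 0.05. Over all genes tested, 15.1% lay below WT in both CLDN6 libraries, 9.06% above in both, and 53.8% were high in replicate 1 with WT between. Of 8 other sterol synthesis genes tested, 1 lay below and 1 above WT in both libraries, and ACAT2, which makes acetoacetyl-CoA for the pathway, was at 82.1, 117 and 86.3 RPM. Of 13 genes of SREBP processing and INSIG turnover, 1 lay below in both and 9 were high in replicate 1 with WT between. MBTPS1, the site-1 protease that cleaves SREBP, was at 168, 113 and 153 RPM, and the ER proteins ERLIN2 and ERLIN1 at 122, 94.1 and 126 RPM and at 99.0, 76.3 and 85.7 RPM. Of 19 other fatty acid synthesis genes tested of 24 listed, 3 lay below in both and 0 above in both. The citrate carrier SLC25A1 was at 69.6, 133 and 108 RPM, the elongase ELOVL1 at 42.4, 152 and 68.8 RPM, and the acyl-CoA synthetase ACSL1 at 147, 26.2 and 57.1 RPM.

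The next list joined genes of cholesterol export and esterification with others of lysosomal cholesterol handling and phospholipid acylation. Of its 10 tested genes, 0 lay below or above WT in both libraries, against 15.1% and 9.06% of all genes. The lysosomal lipase LIPA was at 84.0, 59.7 and 60.5 RPM, the acyltransferase LPCAT3 at 37.6, 61.5 and 49.95 RPM, and the lysosomal cholesterol carrier NPC2 at 54.9, 30.7 and 31.4 RPM. Of 15 tested genes of fatty acid oxidation, 6 lay below WT in both, against 15.1% of all genes, and 0 above in both, against 9.06%. After removal of the GC and length trend 2 of the 15 lay below, against 17.3% of all genes, and 1 above. ECHS1, the enoyl-CoA hydratase, was at 154, 371 and 236 RPM, HADHA, of the mitochondrial trifunctional protein, at 152, 151 and 189 RPM, and the isomerase ECI1 at 61.0, 83.6 and 96.9 RPM. HADHA and ECI1 thus shared with FASN the place of WT as the highest library.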

How the data were processed

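The authors deposited 1 table of log2 values per gene and library, aligned to GRCh38, per the submitters' processing notes. Aligner, counter, annotation release and strandedness: not given in the sources used here. Library depth of each library, from which its precision follows, was recovered from the values: 2 to the power of a value was a whole multiple of 1 step (the worth of 1 read, tolerance 0.05 of a read) in at least 99.9% of nonzero values, so values are log2 of RPM, reads per 1000000. Genes without reads, listed at 0.9 of a read, were set to 0, and limits of 0 reads were taken as 3 reads. Of 35805 rows, 92 were left out, as they had no ID or an unread duplicate of one. Columns were matched to samples by CLDN6 1, CLDN6 2 and WT.

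The 14509 genes averaging 1 RPM or more were tested as log2(RPM + 1), CLDN6 against WT, in limma 3.58.1 (R 4.3.3, trended prior variance), two-sided and adjusted by Benjamini-Hochberg at 0.05. The fit was also run on simulated data, with a spread set smaller than that between the CLDN6 libraries. That run therefore does not show how the fit performs on these data. GC content and transcript length came from GENCODE release 29, promoter windows from RefSeq. The alternatives were a pseudocount of 0.1, no filter, a mean of at least 5 RPM, trimmed-mean, median-ratio and quantile scaling, limma-voom, removal of a trend (splines of 5 degrees of freedom) and each CLDN6 replicate left out. The members and lists were chosen with earlier results of these data known. Named were all 30 members and, of each other pathway list, the 3 genes with the highest mean level and any at least 2-fold from WT in the same direction in both CLDN6 libraries; 2 genes of the list of other sterol synthesis are not reported here singly. The cell type markers named were chosen after their values were seen.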

Additional observations from a re-analysis of the deposited data

How the results depend on the processing

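No member passed limma under any of the 9 settings. The number of genes passing was 0 without a filter (1303 at an unadjusted p under 0.05) and 0 with limma-voom, against 1 otherwise. Members below WT in both CLDN6 libraries numbered 3 with trimmed-mean and 3 with median-ratio scaling (SREBF1, ACACA and FADS1), against 6, and the count below WT in the remaining library ranged from 17 to 18 with a replicate left out. Trimmed-mean scaling moved the all-gene medians from 0.20 and -0.35 to -0.06 and 0.06. Members with a gap of 2-fold or more numbered 6 after removal of the GC and length trend, against 14, and 14 to 18 elsewhere. The fatty acid median in replicate 2, relative to all genes, was -0.41 with quantile normalization, against 0.06. The cause of these shifts was not tested. With a replicate left out no residual degree of freedom was left, so no test was run. No paired analysis was possible because the WT group holds 1 library without a replicate number. Every member had at least 258 reads in each library, and the number of libraries limits the precision.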
